A study of Mus musculus with 4 samples.

Results

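The peaks of 3 m6A reader proteins in the protein arginine methyltransferase genes are described here for mouse bone marrow cells. The 9 genes of the family, Prmt1, Prmt2, Prmt3, Carm1, Prmt5, Prmt6, Prmt7, Prmt8 and Prmt9, were taken by name. A peak was counted for a gene when its summit, the base with the highest coverage, lay between the gene's ends in the GENCODE M21 annotation of the GRCm38 build. The family held 7 of 19866 peaks, and these lay in 4 of the 9 genes. The cells were a lin- c-Kit+ fraction grown with fetal bovine serum and the cytokines IL-3, IL-6 and SCF. The labels call them LIC, and the series title places them in a study of acute myeloid leukaemia stem cells. No genotype, treatment, time point or age is given, and all libraries share the same cells and culture. RNA-protein contacts were fixed with ultraviolet light (254 nm, 120 mJ per cm2, 3 exposures), and the RNA attached to IGF2BP2, to YTHDF2 or to YTHDC1 was pulled down with 1 antibody each and sequenced. The study holds 1 library per reader and 1 input library, so no value below has a replicate check and no difference between readers was tested.

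Arginine methyltransferases move methyl groups from S-adenosylmethionine to arginine side chains of histones, splicing factors and other RNA-binding proteins. Prmt1, Prmt2, Prmt3, Carm1, Prmt6 and Prmt8 belong to the class that makes asymmetric dimethylarginine, Prmt5 and Prmt9 make the symmetric form, and Prmt7 makes monomethylarginine. m6A is a methyl mark on adenosine in RNA, known to be dense near stop codons. IGF2BP2 is known to stabilise marked transcripts, YTHDF2 to promote their decay, and YTHDC1 to act in the nucleus. The series title names PRMT6, a nuclear enzyme that methylates histones.

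Coding sequence under family summits is shown for the 2 Prmt6 peaks, for the peak at the start of Prmt3 and for the Prmt7 peak, because Prmt6 and Prmt3 hold the 3 exonic summits with the highest pileup in the family and Prmt7 the only YTHDF2 summit. Each sequence is from the GENCODE M21 transcripts, 5′ to 3′ on the coding strand, and capitals mark GGAC, the core of the m6A motif. The Prmt6 windows reach 100 bases to each side of the summit, at chr3:110250458-110250658 and chr3:110249845-110250045 on the minus strand. The Prmt3 window runs from the start codon to 50 bases after the summit, joined across the junction of exons 1 and 2, between chr7:49778477-49778634 on the plus strand. The Prmt7 window has 50 bases on each side, at chr8:106241195-106241295 on the plus strand.
Prmt6 stronger IGF2BP2 summit: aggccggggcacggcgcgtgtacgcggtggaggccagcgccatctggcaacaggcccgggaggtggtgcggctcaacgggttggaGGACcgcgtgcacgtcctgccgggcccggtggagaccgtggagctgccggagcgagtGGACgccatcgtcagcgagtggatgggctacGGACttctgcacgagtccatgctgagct
Prmt6 weaker IGF2BP2 summit: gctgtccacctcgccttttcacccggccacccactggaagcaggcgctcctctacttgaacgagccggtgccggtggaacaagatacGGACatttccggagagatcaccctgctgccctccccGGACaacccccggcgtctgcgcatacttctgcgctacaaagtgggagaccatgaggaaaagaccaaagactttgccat
Prmt3 first IGF2BP2 summit: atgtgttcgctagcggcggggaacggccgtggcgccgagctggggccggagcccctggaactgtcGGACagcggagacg
Prmt7 YTHDF2 summit: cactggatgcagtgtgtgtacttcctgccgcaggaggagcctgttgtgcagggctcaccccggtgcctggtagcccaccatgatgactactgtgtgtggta

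IGF2BP2 had summits in 3 of the 9 genes (Prmt3, Prmt6 and Prmt9), YTHDF2 in 1 (Prmt7) and YTHDC1 in 1 (Prmt3). Over all 22028 protein-coding genes, 12.8% had an IGF2BP2 summit, 7.26% a YTHDF2 summit and 19.9% a YTHDC1 summit. The family shares were 33.3%, 11.1% and 11.1%, and each of the latter rests on 1 gene. A summit of any reader lay in 4 of the 9 members (44.4%) against 23.8% of all protein-coding genes. The family genes are longer than most, with a median span of 31942 bp against 17318 bp, and what gene length contributes to the counts was not tested. The family thus stood near the background for YTHDF2 and YTHDC1, and its IGF2BP2 count exceeds the background share by few genes. Of the 9 genes, 1 had summits of more than 1 reader, Prmt3, against 11.1% of all protein-coding genes with summits of 2 or 3 readers. None of the 7 family peaks overlapped a peak of another reader by even 1 bp. The share of all listed peaks with such an overlap was not computed, so this count is not read as a trait of the family. Prmt6 and Prmt9 had IGF2BP2 summits alone, a pattern found in 2.69% of all protein-coding genes and in 21.1% of the 2813 genes with an IGF2BP2 summit.

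**Figure D1:**
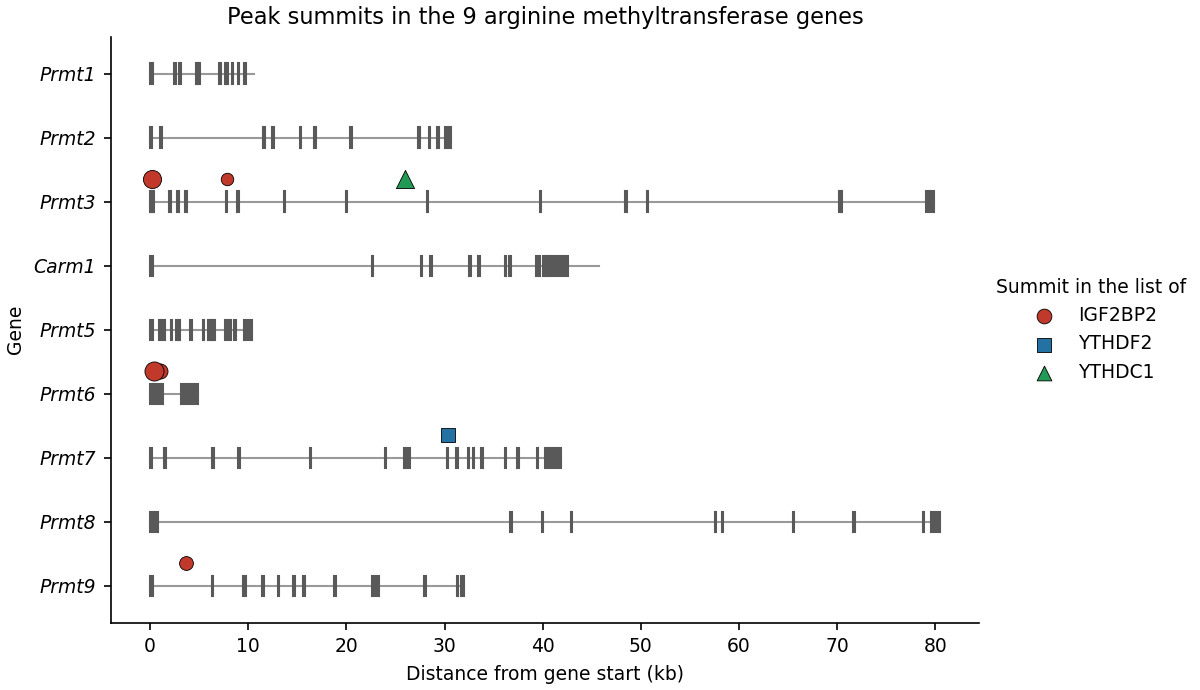
Models of the 9 family genes, each drawn from its start (kb from gene start on the horizontal axis), with exons of the longest complete coding transcript as boxes and summits as symbols whose size grows with the pileup. Of the 7 summits, 2 lie in Prmt6 and 3 in Prmt3, and 5 genes have none.

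Prmt6 (ENSMUSG00000049300.11, chromosome 3, 110246109 to 110250998, minus strand) is the shortest gene of the family, with a span of 4890 bp, 2 exons and a coding sequence of 1137 nt. It was in the IGF2BP2 list only, with 2 peaks whose summits lie 613 bp apart in the coding sequence of exon 1. The stronger peak (110250256 to 110250791) was 536 bp wide, wider than 98.6% of the peaks in its list, and covered coding positions 181 to 716. Its summit, at coding position 414 in codon 138, had a pileup of 8, meaning 8 overlapping fragments as the authors' list gives them, with an exact Poisson 95% interval of 3.45 to 15.8. The authors' fold over the local background was 7.31 there. This fold stood at percentile 65.0 of the list, and the −log10 q of 7.54 was at the middle of the list (median 7.53). By −log10 q this peak was thus near the middle of the IGF2BP2 list, by fold above the middle, and by width among the widest.

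The weaker Prmt6 peak (110249892 to 110249991) lay near the end of the coding sequence, at codon 343, with its summit 108 nt before the stop codon. It was 100 bp wide, the least that the list holds, and had a pileup of 4 (interval 1.09 to 10.2) and a fold of 4.02, at percentile 28.0 of the list. With a −log10 q of 2.01 it stood at the smallest value of the whole IGF2BP2 list, which 9 peaks share. A peak of this kind sits at the edge of the authors' threshold.

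The stronger Prmt6 peak cannot be assigned to a strand. All 536 bp of it lay in an exon of C130013H08Rik, an antisense gene on the plus strand (110250015 to 110253706), which shares 984 bp with Prmt6. The weaker peak lay outside that gene, 24 bp away. The library kit was stranded, but the deposited lists carry no strand, so fragments of the 2 genes cannot be told apart at the stronger peak. The weaker peak is thus the only Prmt6 peak that no other annotated gene overlaps.

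**Figure D2:**
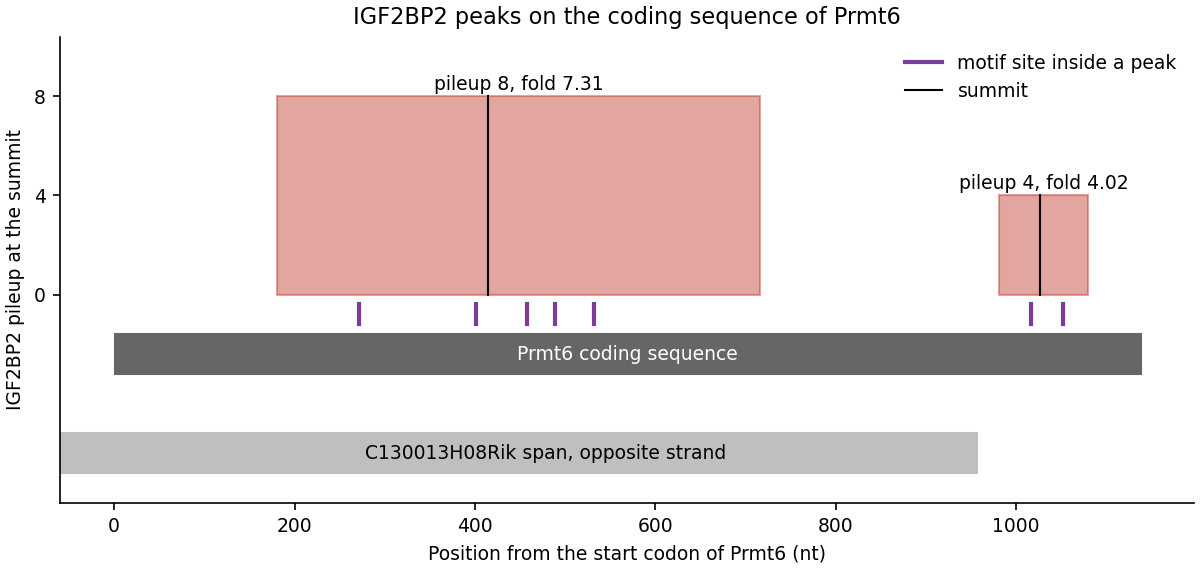
IGF2BP2 peaks on Prmt6, with position from the start codon in nt on the horizontal axis and each peak drawn as a box whose height is the pileup at its summit. The peak of pileup 8 lies over the antisense gene C130013H08Rik, and the peak of pileup 4 lies just past it, with motif sites (short bars) inside both.

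GGAC lay within 50 bases of both Prmt6 summits. The nearest GGAC had its adenosine 13 nt before the stronger summit and 11 nt before the weaker one. Inside the stronger peak 5 GGAC were found, at coding positions 272, 401, 458, 489 and 532, and inside the weaker peak 2, at 1016 and 1052, where the position is that of the adenosine. The motif was searched on the coding strand. Of all IGF2BP2 summits in main coding transcripts, 42.5% of 4022 had a GGAC within 50 bases. The Prmt6 coding sequence is itself rich in GGAC, with 13 copies or 11.4 per kb against a median of 4.61 per kb over 21495 coding transcripts. Of all its coding positions 77.6% have a GGAC within 50 bases, so a GGAC at both summits is what most positions of this gene would give. A motif match is not a measured m6A site.

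Prmt3, a cytosolic enzyme with a zinc finger known to methylate the ribosomal protein Rps2, had the most peaks in the family and was the only gene found with 2 readers (ENSMUSG00000030505.17, chromosome 7, 49778346 to 49858265, plus strand). The first IGF2BP2 peak (49778526 to 49778637) had its summit at the very start of the coding sequence, in exon 2 at codon 10 and 238 bp from the gene start. Its pileup was 7 (interval 2.81 to 14.4), its fold 5.38 and its −log10 q 3.78. The fold stood at percentile 44.1 of the list, whereas the −log10 q stood at percentile 7.04. The second IGF2BP2 peak (49786041 to 49786238) had its summit in exon 6 of 16, at codon 156 of the main transcript. That base is annotated as 3' UTR in another Prmt3 transcript. It rested on a pileup of 2 (interval 0.242 to 7.22), the smallest pileup in the list, with a fold of 2.96. Both Prmt3 summits in exons had 1 GGAC within 50 bases, against 33.3% of all positions of this coding sequence.

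The YTHDC1 peak of Prmt3 (49804249 to 49804358) lay in intron 9, 2254 bp from the nearest exon of any Prmt3 transcript and 25927 bp from the gene start. Its pileup was 7 (interval 2.81 to 14.4), its fold 6.02 and its −log10 q 5.05. The fold stood at percentile 50.3 of the YTHDC1 list. The IGF2BP2 and YTHDC1 summits of Prmt3 therefore lay at different places of the gene, in exons for the former and deep in an intron for the latter. Whether this intronic peak lies in a repeat was not tested.

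Prmt7 (ENSMUSG00000060098.11, chromosome 8, 106210936 to 106252794, plus strand) held the only YTHDF2 peak of the family (106241192 to 106241291). Its summit lay in the coding sequence of exon 9 of 18, at codon 329, with a pileup of 3 (interval 0.619 to 8.77). The fold was 3.92, at a −log10 q of 4.23. It stood at percentile 9.44 of the YTHDF2 folds, so this was one of its weaker peaks. No GGAC lay within 50 bases of the summit, against 41.9% of 1749 YTHDF2 summits with one. Of all positions of this coding sequence 46.9% have a GGAC within 50 bases. Within 100 bases of the summit there was 1 GGAC. The summit also lay in an intron of Gm26786, a long noncoding gene on the other strand.

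Prmt9 (ENSMUSG00000037134.17, chromosome 8, 77549397 to 77581338, plus strand) is known for methylating the splicing factor Sf3b2. It had 1 IGF2BP2 peak (77552977 to 77553076) in intron 1, 2651 bp from the nearest exon, with a pileup of 3 (interval 0.619 to 8.77). The fold of 3.94 stood at percentile 20.6 of the list, and the −log10 q was 5.12. That −log10 q was higher than at the first Prmt3 peak, where the pileup was higher too. The background under the Prmt9 peak was at the lowest value of the list, within 1%.

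Prmt1, the main source of asymmetric dimethylarginine, and Prmt5, the main source of the symmetric form, had 0 peaks in each of the 3 lists. The same held for Prmt2, for the transcriptional coactivator Carm1, and for Prmt8, which is known as an enzyme of the brain. Whether these genes were expressed in the cells or covered by reads was not tested. Within 10 kb of these 5 genes there was 1 peak, and it belonged to a neighbour of Carm1. That YTHDC1 peak (chromosome 9, 21537650 to 21537779) lay 9186 bp upstream of Carm1 in an intron of AB124611 and had a pileup of 15 and a fold of 15.2. Prmt7 likewise had a neighbouring peak, of IGF2BP2, in the coding sequence of Slc7a6os, 8619 bp upstream, with a fold of 4.89. The density of GGAC varied among the 5 genes without a peak. It was 11.9, 10.8 and 10.1 copies per kb of coding sequence in Prmt2, Prmt1 and Prmt8, 6.65 in Carm1 and 4.18 in Prmt5, the last below the median of 4.61 over coding transcripts.

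The background under each family peak tells what pileup the other readers would have needed there. It was computed from the deposited fold as (pileup + 1) divided by the fold, minus 1. With it, the deposited p-value equalled the Poisson upper tail of the pileup over the background within 1% at 7069 of 7069 peaks for IGF2BP2. The same held at 2834 of 2834 for YTHDF2 and at 9962 of 9963 for YTHDC1. At 331 pairs of summits on the same base in different lists, the backgrounds kept 1 fixed ratio per pair of lists within 1%. The ratio was that of the lowest backgrounds of the lists, so pairs with both summits at that lowest value keep it by construction. Such pairs were not counted apart. With this ratio the background at a place was carried from list to list. From the smallest −log10 p of a list (5.23, 5.63 and 5.11 for IGF2BP2, YTHDF2 and YTHDC1) came the smallest pileup that would be listed there.

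At the stronger Prmt6 summit the background was 0.232 for IGF2BP2, and it would be 0.184 on the scale of YTHDF2 and 0.313 on that of YTHDC1. A YTHDF2 pileup of 4 or a YTHDC1 pileup of 5 would have passed there. Among 185 YTHDF2 peaks with a background within 20% of the value given, the lowest pileup was 4, and among 720 such YTHDC1 peaks it was 5. As the limits were taken from the same lists, this is not a separate check. Both values, not scaled between libraries, lie inside the interval of 3.45 to 15.8 around the IGF2BP2 pileup of 8. Apart from the minimum width of 100 bp, the missing peaks thus mean pileups under 4 for YTHDF2 and under 5 for YTHDC1 at that base. These pileups are lower than the needed ones and are not listed, so a difference from IGF2BP2 could not be tested. At the weaker Prmt6 summit the pileups needed were also 4 and 5, against 4 observed for IGF2BP2.

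The same held for the rest of the family. At the first Prmt3 summit a pileup of 6 would have been needed in each of the other lists, against 7 observed. At the Prmt3 intron summit of YTHDC1 a pileup of 4 was needed in the IGF2BP2 list and 4 in the YTHDF2 list, against 7. At the Prmt7 and Prmt9 summits and at the second Prmt3 summit a pileup of 2 would have passed in every list, against 3, 3 and 2 observed. In 14 of 14 cases the needed pileup, not scaled between libraries, lay inside the Poisson interval of the observed one. With pileups this low the intervals are wide, and a missing peak means a pileup below the needed one, so this count decides nothing. Whether readers differed beyond counting error could therefore not be told at any family peak.

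**Figure D3:**
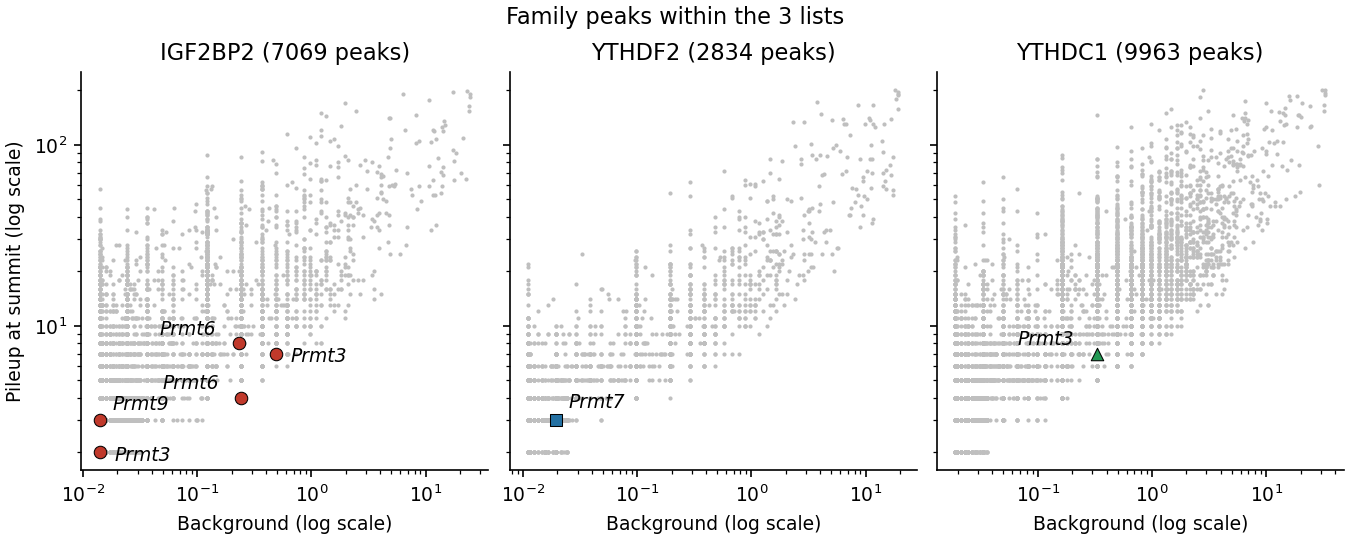
Pileup at the summit against the background under it for every peak of the 3 lists (grey, log scales on both axes), with the family peaks coloured. The 7 family peaks have pileups of 2 to 8, where the medians of the lists are 5, 5 and 6, and the weaker Prmt6 peak lies on the lower edge of its cloud.

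Other genes of arginine methylation are given for comparison. Of 41 genes of known arginine-methylated proteins, 25 had an IGF2BP2 summit, 25 a YTHDF2 summit and 34 a YTHDC1 summit, and 5 had none. The shares over all protein-coding genes were 12.8%, 7.26% and 19.9%. These are mostly abundant RNA-binding proteins, and what their expression contributes was not tested. In the order of the 3 readers, the list was led by Ewsr1 (top folds of 25.7, 13.9 and 49.8), the poly(A)-binding protein gene Pabpc1 (43.2, 25.2 and 29.6) and Hnrnpu (34.6, 24.3 and 19.9). Against these, the top fold in the family was 7.31.

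Of 6 genes of methyltransferase partners, 2, 2 and 3 had a summit of IGF2BP2, YTHDF2 and YTHDC1, beside 12.8%, 7.26% and 19.9% of all protein-coding genes. Btg2, an antiproliferative cofactor of Prmt1, reached folds of 4.91 for YTHDF2 and 9.45 for YTHDC1. Riok1 and Wdr77, both partners of Prmt5, reached 4.90 and 3.93 for YTHDC1, and Riok1 also had 4 IGF2BP2 peaks. Clns1a and Coprs, also partners of Prmt5, had no peak in any list, as was the case for Prmt5 itself.

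Of 10 genes that supply or recycle S-adenosylmethionine or use it for polyamines, 2, 1 and 6 had summits of the 3 readers in the same order. The first 2 counts lie near the 12.8% and 7.26% over all protein-coding genes, and the third is set beside 19.9%. The leading folds were those of YTHDC1 in Srm (12.0), Ahcyl1 (11.8) and Mat2a (11.2), of which Mat2a makes S-adenosylmethionine. Of 8 Tudor domain genes, some of which encode readers of methylarginine, 4, 1 and 4 had summits, beside the same shares over all genes, led by Akap1 (20.6), Smndc1 (9.72) and Snd1 (6.78), all for YTHDC1. Of 5 enzymes that act on arginine or on free methylarginine, 3, 1 and 2 had summits, beside the same shares. Padi4, which turns arginine into citrulline, led with intronic folds of 16.9 for IGF2BP2 and 36.1 for YTHDC1, followed by Jmjd6 (7.75 for IGF2BP2) and Padi2 (4.92 for IGF2BP2).

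**Figure D4:**
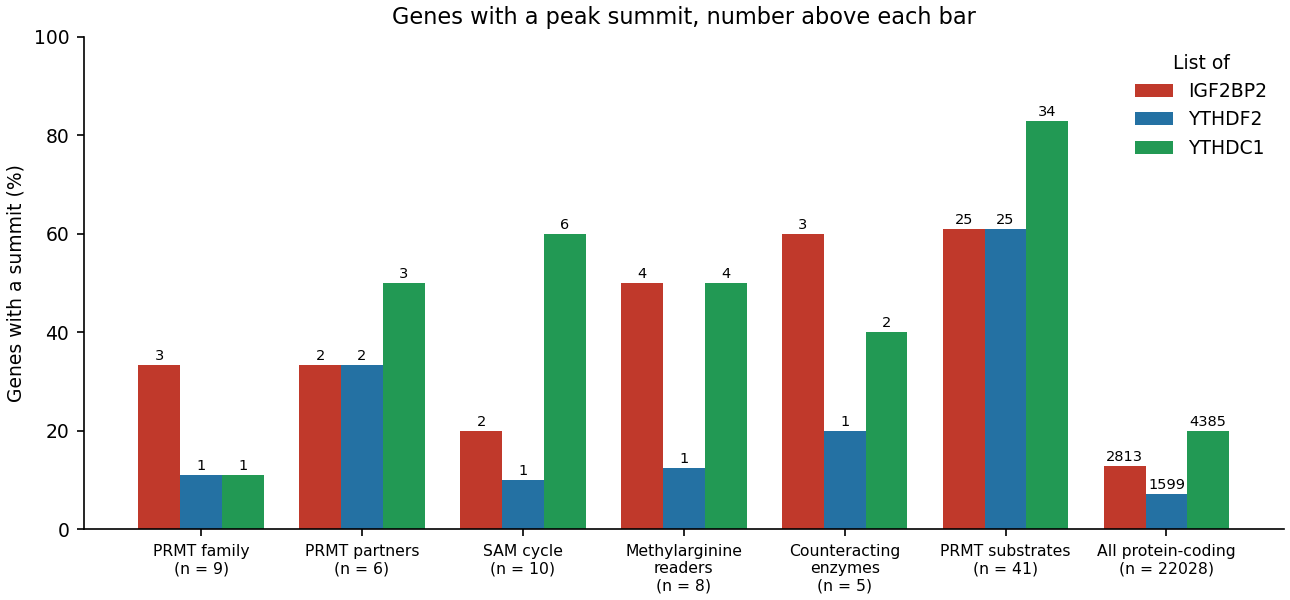
Percent of genes with at least 1 summit of each reader, for the methyltransferase family, 5 lists of related genes and all 22028 protein-coding genes, with the number of genes above each bar. The family bars stand for 3, 1 and 1 genes, and the tallest bars are those of the methylated substrates (25, 25 and 34 of 41).

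The markers of the sorted fraction were checked in the same way. Of 7 progenitor genes, 4 had a summit and 3 (Cd34, Flt3 and Hoxa9) had none. Myb reached a fold of 46.9 for IGF2BP2, and Meis1 reached 12.9, Kit itself 4.91 and Gata2 3.91 for YTHDC1. Over all protein-coding genes, 23.8% had a summit of any reader. Of 12 markers of mature or stromal cells 4 had a summit, Pecam1, Itgam, Adgre1 and Col1a2, all in the YTHDC1 list and Itgam in the IGF2BP2 list too. Their top YTHDC1 folds were 12.1, 7.73, 7.37 and 3.93 in that order, so the first 3 stood above Kit. Col1a2, the lowest of these by fold, and Gata2, Cd34, Flt3 and Hoxa9 are named outside the rule for named genes, after their values were seen. The part of mature or stromal cells in the family's peaks was not tested.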

How the data were processed

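RNA pulled down with IGF2BP2, with YTHDF2 or with YTHDC1 was sequenced from 1 library each. The input library was not analysed here. The tools named in the submitters' processing notes are bcl2fastq 2.17, HISAT2 and Trim Galore, and the build is GRCm38. The peak caller is not given in the sources used here. The deposited lists give a fold (ratio) over the local background, the −log10 of the p-value and of the q-value, and a score that follows the −log10 q. They also give the deposited pileup signal at the summit, named per the file headers. Peaks were called in each library separately, and sequencing depth is unknown. How duplicates were treated is not stated.

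Summits were placed in genes and transcripts with GENCODE M21 in Python 3.11.15 (pandas 2.3.3, scipy 1.17.1). Regions were ranked 3' UTR, 5' UTR, CDS, other exon and intron over all transcripts, and positions refer to the longest complete coding transcript. Poisson intervals (95%) cover counting error only and are too narrow for summits, which are chosen as maxima. Positions and limits were tested on simulated data. Genes were named by a rule that takes all 9 members with every peak, the top 3 by fold of each other list, and neighbours within 10 kb that hold a peak. The members and lists were chosen with earlier results of these data known. Intronic summits were not searched for motifs, because no genome sequence was used here. The alternatives are in the closing section.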

Additional observations from a re-analysis of the deposited data

How the results depend on the processing

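With 1 library per reader, none was left out. No paired analysis was possible because each reader has a single library. The 14 alternatives gave 142 counts for the family, of which 108 stayed within 1.5 times the main count and 34 did not. Many of the 108 belong to results with nothing counted in the main analysis, such as Prmt6 peaks of YTHDF2 and of YTHDC1. Alternatives that only remove peaks cannot raise such counts. The YTHDC1 motif count could not move either, because its only family summit is intronic and was not searched. The 108 is therefore not a measure of how stable the family's peaks are.

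Peaks of the family by reader (main counts 5 for IGF2BP2, 1 for YTHDF2 and 1 for YTHDC1) fell to 2 for IGF2BP2 and 0 for YTHDF2 under a minimum of 5 on the −log10 q, on the fold or on the pileup. When the IGF2BP2 and YTHDC1 lists were reduced to the 2834 peaks highest in −log10 q (equal list length), 0 family peaks and 0 members remained for either reader. The YTHDF2 list has that length already and was not reduced, so its Prmt7 peak was not put to this check. With summits in exons only, YTHDC1 had 0 peaks and 0 members. Without summits that also lie in another annotated gene, an alternative chosen after seeing the data, YTHDF2 had 0 peaks and 0 members and Prmt6 kept 1 IGF2BP2 peak.

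Prmt6 kept 1 of its 2 IGF2BP2 peaks at each of the 3 minimum values and 0 at equal list length. The peak kept at the minimum values was the stronger one, which lies in an exon of the antisense gene C130013H08Rik. The peak left without summits in another gene was the weaker one, which fell below each minimum. No Prmt6 peak thus passed both a minimum value and that alternative. The members with a YTHDF2 summit fell from 1 to 0 at each of the 3 minimum values. Family peaks in coding sequence fell from 3 to 1 for IGF2BP2 under the minimum −log10 q and to 0 at equal list length. For YTHDF2 they fell from 1 to 0 at each minimum value and without summits in another gene. IGF2BP2 summits with a GGAC within 50 bases fell from 4 to 1 under the minimum −log10 q, to 2 under the minimum fold or pileup, and to 0 at equal list length. YTHDF2 summits with the motif rose from 0 to 1 within 100 bases, and to 1 with the broader motif DRACH. The count of family peaks that overlap another reader's peak was 0 under each alternative. It was 0 in the main analysis too, so alternatives that only remove peaks could not change it.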

Other observations

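The backgrounds under the family peaks took few values. Each background was divided by the lowest one of its own list, which gave 1.74 at the Prmt7 peak. In units of that 1.74, the values were 9.50 and 10.0 for the stronger and weaker Prmt6 peak. They were 10.0 for the Prmt3 intron peak of YTHDC1 and 20.0 for the first Prmt3 peak of IGF2BP2. The second Prmt3 peak and the Prmt9 peak stood at the lowest background of the IGF2BP2 list, as did 35.9% of that list. Such fixed steps appear as vertical lines in the plot of pileup against background. How many input fragments a step stands for was not tested.

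Coding sequences dense in GGAC were found among members with and without peaks. Prmt1, Prmt2 and Prmt8 had more GGAC per kb of coding sequence than 97.5%, 98.6% and 96.5% of 21495 coding transcripts, and Prmt6 more than 98.2%. Of these 4 genes, Prmt6 alone had a peak. Prmt9 had 3.15 copies per kb, more than 27.0% of transcripts, and its peak was intronic.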
